A study of Mus musculus with 16 samples.

Results

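Pdpn and Prg4 are a pair of genes of the peritoneal macrophage (PM) data whose input reads differed in opposite directions between Adap-/- and WT PMs after LPS. They were chosen by these measured values, Pdpn being lower and Prg4 higher in Adap-/- PMs, so that difference is given here as a description without a test. Together they are 2 of 4943 genes and carry 7 of the 7069 peaks that the authors listed. PMs were taken by lavage from mice of C57BL/6 background, WT or lacking ADAP (Adap-/-), the immune adapter encoded by Fyb1, 3 days after 3% thioglycolate was injected, which draws inflammatory macrophages into the peritoneal cavity. Per the study's methods the mice were sex-matched littermates aged 6 to 8 weeks, and the Adap-/- mice are not described as a macrophage-specific knockout. The 4 groups were WT mock, Adap-/- mock, WT LPS and Adap-/- LPS PMs, where LPS was given at 1 μg/ml for 6 h, with 2 replicates per group. Each replicate gave an input library of fragmented RNA and an IP library of the fragments captured by an antibody against N6-methyladenosine (m6A), the methyl mark on adenosines of mRNA, 16 libraries in all. Nothing in the labels says whether the replicates came from separate animals, so p-values measure the spread between these samples, which may be technical.

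Pdpn encodes podoplanin, a membrane glycoprotein rich in O-linked sugars that binds the platelet receptor CLEC-2 and links through its short tail to the actin cytoskeleton by way of ezrin and moesin. It marks lymphatic endothelium and stromal cells of lymph nodes, and it is known to be induced on inflammatory macrophages. Prg4 encodes lubricin, a large secreted mucin-like proteoglycan that lubricates joints and other sliding surfaces, binds CD44 and TLR2, and is also made by mesothelial cells and by resident macrophages of the peritoneum. Podoplanin is thus a surface glycoprotein, whereas lubricin is secreted and is found on surfaces to which it adheres.

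The peaks of Pdpn lay at both ends of its transcript and those of Prg4 lay within the coding sequence. Pdpn (ENSMUSG00000028583) is on the minus strand of chromosome 4, and its peaks are numbered here from 5′ to 3′. Peak 1 (chr4:143025943-143026042, 100 bases) covered the 5′UTR and the start codon. Peak 2 (chr4:142994576-142994775, 200 bases) and peak 3 (chr4:142994126-142994400, 275 bases) lay in the 3′UTR. Prg4 (ENSMUSG00000006014) is on the minus strand of chromosome 1 and had 4 peaks annotated to the CDS. These were peak 1 (chr1:150331709-150331808, 100 bases), peak 2 (chr1:150331234-150331558, 325 bases), peak 3 (chr1:150330259-150330933, 675 bases) and peak 4 (chr1:150329884-150330108, 225 bases). Coordinates are those of the deposited table, counted from 1, and GRCm39 is the build that the submitters' notes name. None of the 7 peaks was shared with another gene.

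The libraries held 2121313 to 4325961 input reads and 5728590 to 19030373 IP reads on peaks. Fyb1 had 36.9 and 46.7 normalized input CPM in Adap-/- mock PMs against 244 and 257 in WT mock PMs, so the input libraries carried the labelled genotype (log2 fold change −2.58, SE 0.13, edgeR adjusted p = 8.51e-09). The IP libraries labelled WT mock replicate 1 and Adap-/- mock replicate 2 stood apart. On 144 peaks that LPS raised more than 32-fold in the input of both genotypes, they held 63.7% and 62.1% of the level of the LPS IP libraries of their genotype, whereas the other mock IP libraries held 3.68% (WT replicate 2) and 7.06% (Adap-/- replicate 1). The mock input libraries held at most 1.18% of the LPS input level. On 11 peaks that LPS lowered more than 16-fold, the WT LPS IP libraries held 9.72% and 5.14% of the mock input level, and the Adap-/- LPS IP libraries 2.40% and 2.57%. The mock IP libraries that stood apart held 54.2% (WT replicate 1) and 55.0% (Adap-/- replicate 2) there. The other mock IP libraries held 66.3% (WT replicate 2) and 70.6% (Adap-/- replicate 1). On 2 Fyb1 peaks that were nearly empty in Adap-/- input, Adap-/- mock replicate 1 had 101 IP reads, or 2.29% of the WT mock IP level, and the other Adap-/- IP libraries had at most 8. Input levels of genes do not rest on these IP libraries, whereas input levels of single peaks share a scaling with them. Results from mock IP libraries are also given without the pair that stood apart. The macrophage genes Lyz2 and Cd68 had 2654 to 5344 and 3573 to 4363 normalized input CPM over the 8 input libraries.

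Pdpn was lower in Adap-/- mock PMs, in libraries outside the contrast that chose it. The labels do not say whether mock and LPS cells shared animals, and both genes were chosen with earlier results known. The test in mock libraries is thus not fully independent of the choice. Normalized input CPM of Pdpn, summed over its 3 peaks, were 309 and 322 in the WT mock replicates and 83.2 and 78.6 in the Adap-/- mock replicates. The means were 315 ± 8.99 (SD, n = 2) and 80.9 ± 3.23 (SD, n = 2), and the groups did not overlap. The fitted level was 3.90-fold lower in Adap-/- PMs (log2 fold change −1.96, SE 0.11, adjusted p = 1.73e-08 by edgeR's quasi-likelihood test), against 8.65% of the 4742 genes tested that were called lower. Without any 1 input library in turn the log2 fold change stayed between −2.00 and −1.92.

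Prg4 was higher in Adap-/- mock PMs, in a comparison with the same limits. Its normalized input CPM, summed over its 4 peaks, were 50.9 and 27.2 in WT mock PMs and 155 and 311 in Adap-/- mock PMs. The means were 39.1 ± 16.8 (SD, n = 2) and 233 ± 111 (SD, n = 2), with the lower Adap-/- library still above both WT libraries. The fitted level was 5.95-fold higher (log2 fold change 2.57, SE 0.36, 95% interval 1.82 to 3.33, edgeR adjusted p = 0.000239), and 8.71% of all genes tested were called higher. With 1 input library left out in turn, the log2 fold change lay between 1.98 and 3.10. In such bulk RNA, fewer cells that express a gene and less of its RNA per cell cannot be told apart.

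After LPS, the contrast by which both genes were selected, the same directions are seen with sizes near those in mock-treated PMs. Pdpn had 1434 and 1546 normalized input CPM in WT LPS PMs and 416 and 376 in Adap-/- LPS PMs. Prg4 had 69.6 and 54.6 in WT LPS PMs and 215 and 445 in Adap-/- LPS PMs. The fitted log2 differences, which chose the genes and carry no test here, were −1.91 (SE 0.10) for Pdpn and 2.40 (SE 0.35) for Prg4. The background in this contrast was 9.78% of genes called lower and 6.03% called higher, from which nothing is read for these genes.

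**Figure D1:**
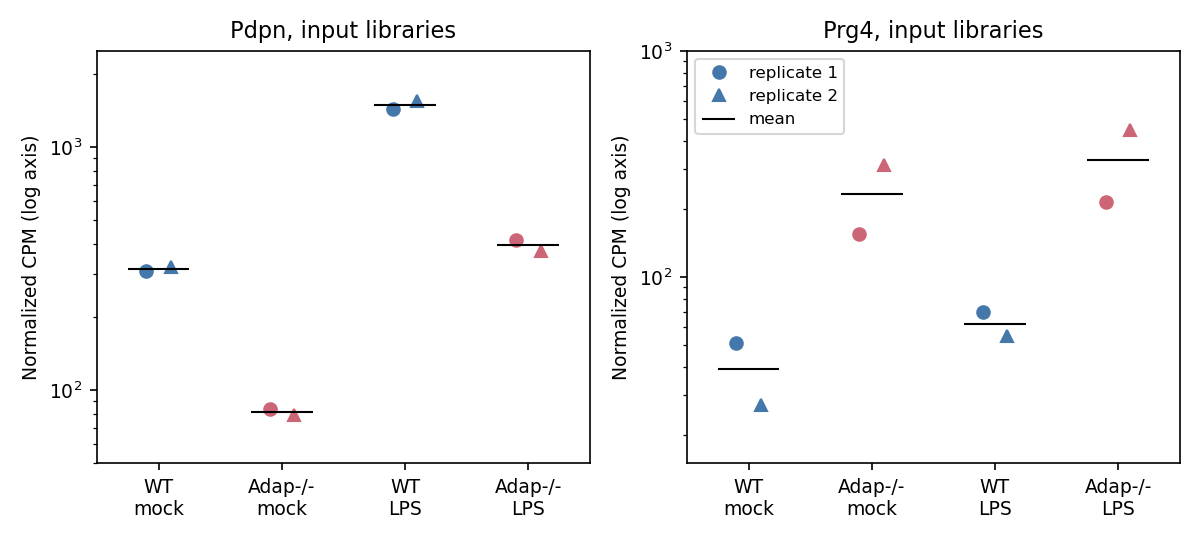
Normalized input CPM (log axis) of Pdpn and Prg4 in each replicate of the 4 groups, WT in blue and Adap-/- in red, with a line at each group's mean of 2. Pdpn lay at 78.6 to 83.2 in Adap-/- mock and at 1434 to 1546 in WT LPS PMs, and every Adap-/- replicate of Prg4 (155 to 445) was above every WT replicate (27.2 to 69.6).

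The order of the groups differed between the genes. For Pdpn the mean rose from Adap-/- mock over WT mock and Adap-/- LPS (396 ± 28.5, SD, n = 2) to WT LPS PMs, and no neighbouring groups overlapped, the Adap-/- LPS replicates being only just above the WT mock replicates. For Prg4 the order was WT mock, WT LPS (62.1 ± 10.6, SD, n = 2), Adap-/- mock and Adap-/- LPS (330.2 ± 163, SD, n = 2). The WT groups were separated from the Adap-/- groups, while the Adap-/- mock and Adap-/- LPS replicates overlapped, and the WT mock and WT LPS replicates did not overlap, the nearest being at 50.9 and 54.6.

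Per kilobase of peak, Pdpn stood far above Prg4 in WT PMs, with 537 and 560 input CPM per kilobase against 38.4 and 20.5 in mock-treated cells. After LPS the WT values were 2494 and 2689 for Pdpn and 52.5 and 41.2 for Prg4. In Adap-/- mock PMs the values of Pdpn (145 and 137) fell between those of the Prg4 replicates (117 and 235), so the genes could not be ordered there. In Adap-/- LPS PMs Pdpn (724 and 654) was again above Prg4 (162 and 336). These levels are per base of peak and not per base of transcript.

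LPS raised Pdpn in both genotypes. The fitted increase was 4.72-fold in WT PMs (log2 fold change 2.24, SE 0.10, edgeR adjusted p = 8.85e-12) and 4.90-fold in Adap-/- PMs (log2 fold change 2.29, SE 0.11, edgeR adjusted p = 1.99e-11). Both LPS replicates lay above both mock replicates of the same genotype. These contrasts share the LPS libraries that selected the genes, and LPS raised 30.2% of all genes tested in WT PMs and 28.5% in Adap-/- PMs. The difference between the responses, a description because it holds the selecting contrast, was 0.05 on the log2 scale (SE 0.14). With upper-quartile scaling the median log2 LPS response of all genes was −0.32 in WT and −0.31 in Adap-/- PMs, rather than −0.032 and −0.033. Pdpn then rose by 1.95 and 2.02. Under that scaling the calls in WT PMs were 1104 higher and 1979 lower rather than 1434 and 1372, and in Adap-/- PMs 1007 and 1880 rather than 1350 and 1235.

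The LPS response of Prg4 was not called in either genotype. Its fitted log2 fold change was 0.67 in WT PMs (SE 0.39, 95% interval −0.17 to 1.502, edgeR adjusted p = 0.158) and 0.49 in Adap-/- PMs (SE 0.31, 95% interval −0.16 to 1.14, edgeR adjusted p = 0.193). Single libraries decided these values. Without WT mock replicate 1 the increase in WT PMs was 1.17 (edgeR adjusted p = 0.0455), and with the spread taken only from the libraries compared it was 0.67 (edgeR adjusted p = 0.0161). In Adap-/- PMs it was 0.93 without LPS replicate 1 (edgeR adjusted p = 0.0144), 1.07 without mock replicate 2 (edgeR adjusted p = 0.0125) and −0.12 without LPS replicate 2 (edgeR adjusted p = 0.779). The difference between the responses was −0.18 (SE 0.50), again as a description.

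**Figure D2:**
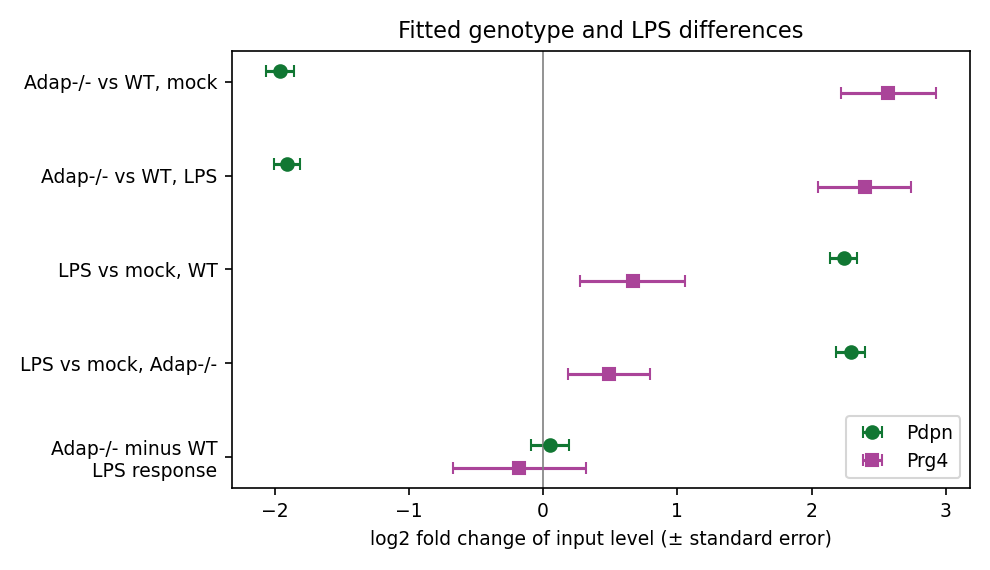
Fitted log2 fold changes of the input level of Pdpn (circles) and Prg4 (squares), with bars of 1 standard error, for the 2 genotype contrasts, the 2 LPS responses and the difference between the responses. Pdpn was lower in Adap-/- PMs by about the same amount in mock (−1.96) and LPS (−1.91), Prg4 was higher (2.57 and 2.40), and the difference between the LPS responses was near 0 for both. The LPS genotype contrast chose the genes and is a description.

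Prg4 varied more between replicates than most genes, and Pdpn did not. In Adap-/- PMs, Prg4 was higher in replicate 2 than in replicate 1 by 1.00 on the log2(CPM + 1) scale in mock-treated and 1.04 in LPS-treated cells. The absolute difference was larger than that of 99.0% and 98.1% of genes in these groups, whose medians were 0.15 and 0.17. In WT mock PMs the Prg4 replicates differed by −0.88, beyond 97.3% of genes, and in WT LPS PMs by −0.35. The replicate differences of Pdpn lay between −0.15 and 0.11.

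The IP libraries of Adap-/- PMs repeated the difference between the Prg4 replicates. Scaled over all 16 libraries and summed over the 4 peaks, Prg4 in mock-treated Adap-/- PMs had 229 and 461 CPM in input and 241 and 502 in IP. After LPS the values were 281 and 567 in input and 434 and 860.4 in IP. Replicate 2 was thus higher in all 4 cases, by 0.99 to 1.06 on the log2 scale. By the study's methods an input and an IP library of a sample share their RNA, so they are not independent measurements of it. The IP library labelled Adap-/- mock replicate 2, with 502 CPM, belongs to the pair that stood apart.

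Every peak of both genes showed the genotype difference in input. In mock-treated PMs the Adap-/- replicates of all 3 Pdpn peaks were below both WT replicates and those of all 4 Prg4 peaks above, where 27.6% and 27.9% of all peaks were without overlap in these directions. Levels of single peaks, here and below, were scaled over all 16 libraries, so they do not add up to the gene levels above. On this scale the summed Pdpn input was 468 and 497 CPM in WT mock PMs rather than 309 and 322. Pdpn peak 3 had 293 and 320 input CPM in WT mock and 70.2 and 71.9 in Adap-/- mock PMs. Pdpn peak 1, at the start codon, was the weakest, with 14.3 and 15.4 in WT mock and 4.27 and 4.67 in Adap-/- mock PMs, from 37 and 37 against 11 and 13 reads. Over the Pdpn peaks the log2 of Adap-/- over WT means lay between −2.11 and −1.73. The difference was thus of similar size at the 5′ end and in the 3′UTR.

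For Prg4, peak 3 had 22.9 and 16.6 input CPM in WT mock and 78.7 and 170 in Adap-/- mock PMs. Peak 1 had 7.75 and 4.99 against 26.8 and 53.9 CPM. Peak 2 had 20.5 and 12.5 against 50.8 and 97.4 CPM, and peak 4 had 26.0 and 7.90 against 72.5 and 140 CPM. The log2 of the means lay between 2.17 and 2.66, and in each peak Adap-/- replicate 2 was the highest library of the 4. After LPS the log2 values of the Pdpn peaks were −1.98 to −1.69 and those of the Prg4 peaks 2.25 to 2.53, as a description.

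The IP reads followed the same directions. In mock-treated PMs, Pdpn peak 3 had 381 and 278 IP CPM in WT and 103 and 116 in Adap-/- PMs, and Pdpn peak 2 had 163 and 124 against 46.5 and 55.0. Prg4 peak 3 had 18.7 and 16.2 IP CPM in WT mock PMs against 79.7 and 201 in Adap-/- mock PMs, and Prg4 peak 2 had 10.3 and 3.78 against 47.6 and 117. All 3 Pdpn peaks were lower and all 4 Prg4 peaks higher without overlap in Adap-/- mock IP libraries, where 17.1% and 18.9% of all peaks were lower and higher without overlap. The IP log2 differences lay between −2.71 and −1.503 for Pdpn and between 2.52 and 3.55 for Prg4.

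Without the IP libraries labelled WT mock replicate 1 and Adap-/- mock replicate 2, 1 mock IP library per genotype was left, and the IP levels are given as values without a test. The log2 difference in IP was then −1.42 and −1.43 for Pdpn peaks 2 and 3, and 2.16 to 3.66 for the Prg4 peaks. That of Pdpn peak 1 fell in size to −0.32, from 2.85 CPM in Adap-/- and 3.57 CPM in WT mock PMs. This peak had 0 reads in the IP library labelled Adap-/- mock replicate 2, which allows a level of up to 0.403 CPM there by a floor of 3 counts. Such floors cover counting error only, since reads were not marked before PCR.

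After LPS, the IP values of Pdpn were close between replicates and those of Prg4 in Adap-/- PMs were not. Peak 3 had 785 and 826 IP CPM in WT LPS PMs and 302 and 308 in Adap-/- LPS PMs. Prg4 peak 3 had 34.1 and 32.6 IP CPM in WT LPS PMs and 162 and 360.0 in Adap-/- LPS PMs. As a description, the IP log2 differences were −1.53 to −1.40 for the Pdpn peaks and 2.59 to 2.97 for the Prg4 peaks.

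**Figure D3:**
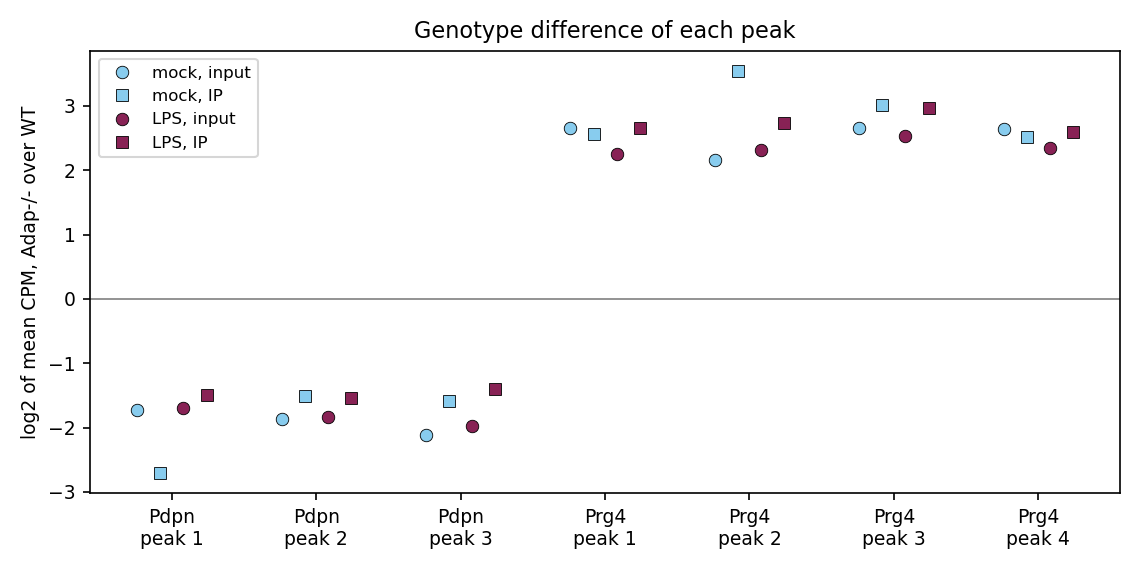
Log2 of mean CPM in Adap-/- over WT PMs for each of the 7 peaks (n = 2 per mean), in input (circles) and IP (squares), mock (light) and LPS (dark). All Pdpn points lie below 0 (−2.71 to −1.40) and all Prg4 points above 0 (2.17 to 3.55), and the lowest point, Pdpn peak 1 in mock IP, includes a library with 0 reads.

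The IP-to-input ratio, the IP level of a peak over its input level with the average peak as the scale, was then compared between genotypes in mock-treated PMs. Pdpn peak 3 had ratios of 1.30 and 0.867 in WT mock and 1.47 and 1.61 in Adap-/- mock PMs. Pdpn peak 2 had 1.02 and 0.773 against 0.960 and 1.38, so these groups overlapped, while those of peak 3 did not. The share of all peaks without overlap in this ratio was not counted, so nothing is read from overlap of ratios, here and below. The change of peak 3 was 0.52 on the log2 scale (SE 0.24, edgeR adjusted p = 1.00), and that of peak 2 was 0.36 (SE 0.29, edgeR adjusted p = 1.00). Without the IP libraries that stood apart the changes were 0.70 (SE 0.18, edgeR adjusted p = 0.788) and 0.47 (SE 0.28, edgeR adjusted p = 1.00). In that setting the lone mock IP library of a genotype is assumed to vary like the other groups, here and in each such value below. With all libraries, by edgeR 0 of the 7058 peaks tested were called in this contrast, 148 (2.1%) had an unadjusted p below 0.05, and DESeq2 called 0.

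No ratio change of a Prg4 peak between the genotypes was called in mock-treated PMs, by a fit that did not pair input with IP. Peak 2 had the largest fitted change of the 4 peaks, with ratios of 0.501 and 0.303 in WT mock and 0.937 and 1.20 in Adap-/- mock PMs (log2 change 1.41, SE 0.80, 95% interval −0.35 to 3.18, edgeR adjusted p = 1.00). It rested on 80 and 54 IP reads in WT mock PMs. Peaks 1, 3 and 4 changed by −0.08, 0.36 and −0.12 with standard errors of 0.75 to 0.81, and their intervals allow changes of more than 1 in either direction. Without the IP libraries that stood apart, peak 2 changed by 1.51 and peaks 1, 3 and 4 by −0.04, −0.33 and −0.46, all with adjusted p = 1.00 by edgeR.

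The ratio of the 3′UTR peaks of Pdpn was lower after LPS in both genotypes at an unadjusted p below 0.05, but was not called after adjustment over all peaks. Peak 3 had ratios of 1.30 and 0.867 in WT mock and 0.636 and 0.624 in WT LPS PMs, and 1.47 and 1.61 in Adap-/- mock and 0.933 and 0.949 in Adap-/- LPS PMs. The LPS replicates were below the mock replicates in both genotypes, which was likewise not compared with all peaks. The log2 change was −0.77 in WT (SE 0.24, edgeR adjusted p = 0.266) and −0.71 in Adap-/- PMs (SE 0.24, edgeR adjusted p = 0.313). Peak 2 changed by −0.64 (SE 0.29, edgeR adjusted p = 0.455) and −0.71 (SE 0.29, edgeR adjusted p = 0.396) in the same order, and by −0.48 (adjusted p = 0.482) and −0.64 (adjusted p = 0.225) without the IP libraries that stood apart.

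By edgeR, 0 of the 7058 peaks were called in either LPS response. At an unadjusted p below 0.05 there were 763 peaks (10.8%) in WT and 812 (11.5%) in Adap-/- PMs, and DESeq2 called 202 and 117. Among those called by DESeq2 was Pdpn peak 3 in WT PMs, with a log2 change of −0.86 (adjusted p = 0.0334). Without the IP libraries that stood apart, Pdpn peak 3 changed by −0.57 in WT (edgeR adjusted p = 0.109) and by −0.68 in Adap-/- PMs (edgeR adjusted p = 0.0429), and edgeR then called 160 and 269 peaks. These values rest on 1 mock IP library per genotype, in a setting chosen after seeing the data. The total level of Pdpn rose in the same contrasts, and its part in the lower ratio was not tested.

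No ratio change of Pdpn peak 1 was called. Without the IP libraries that stood apart its changes were 1.42 between genotypes in mock (edgeR adjusted p = 1.00), 1.28 after LPS in WT (edgeR adjusted p = 0.181) and 0.06 after LPS in Adap-/- PMs (edgeR adjusted p = 0.996). With all libraries its ratios were 1.05 and 0.232 in WT mock, 0.668 and 0 in Adap-/- mock, 0.556 and 0.665 in WT LPS and 0.572 and 0.835 in Adap-/- LPS PMs. The standard errors of its changes with all libraries were 1.14 to 1.25 on the log2 scale, more than the size of each of them.

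No ratio change of a Prg4 peak after LPS was called. Peak 3 had 0.816 and 0.971 in WT mock and 1.40 and 1.25 in WT LPS PMs (log2 change 0.58, SE 0.77, edgeR adjusted p = 0.856). In Adap-/- PMs it had 1.01 and 1.18 before and 1.70 and 1.83 after LPS (log2 change 0.67, SE 0.72, edgeR adjusted p = 0.783). The LPS replicates of this peak were above the mock replicates in both genotypes, again not compared with all peaks, but the fit did not separate them. It did not pair an input with the IP library of its replicate. Its standard errors thus hold the spread of the Prg4 level between replicates, whose part was not tested. A fit that paired input and IP by label did not call this peak in either genotype. Summed over all Prg4 peaks, the ratios were 0.736 and 1.04 in WT mock and 1.12 and 1.23 in WT LPS PMs. In Adap-/- PMs they were 1.05 and 1.09 before and 1.54 and 1.52 after LPS. Prg4 peaks other than peak 3 changed by −0.01 to 1.32, with adjusted p of at least 0.640 by edgeR. Without the IP libraries that stood apart, peak 2 changed by 2.12 (SE 0.70, edgeR adjusted p = 0.195) rather than 1.32 in WT PMs and by 1.06 (SE 0.56, edgeR adjusted p = 0.364) rather than 0.33 in Adap-/- PMs. Peak 3 then changed by 0.64 (SE 0.78, edgeR adjusted p = 0.835) and 1.44 (SE 0.67, edgeR adjusted p = 0.296) in the same order, peak 1 by 0.38 and 0.84, and peak 4 by 0.016 and 0.77.

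As a description of the contrast that chose the genes, the IP-to-input log2 ratio of Pdpn peak 3 was higher by 0.58 (SE 0.24) in Adap-/- LPS than in WT LPS PMs, and those of peaks 1 and 2 by 0.18 (SE 1.14) and 0.29 (SE 0.29). The Prg4 peaks were higher by 0.26 to 0.44, with standard errors of 0.73 to 0.80.

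**Figure D4:**
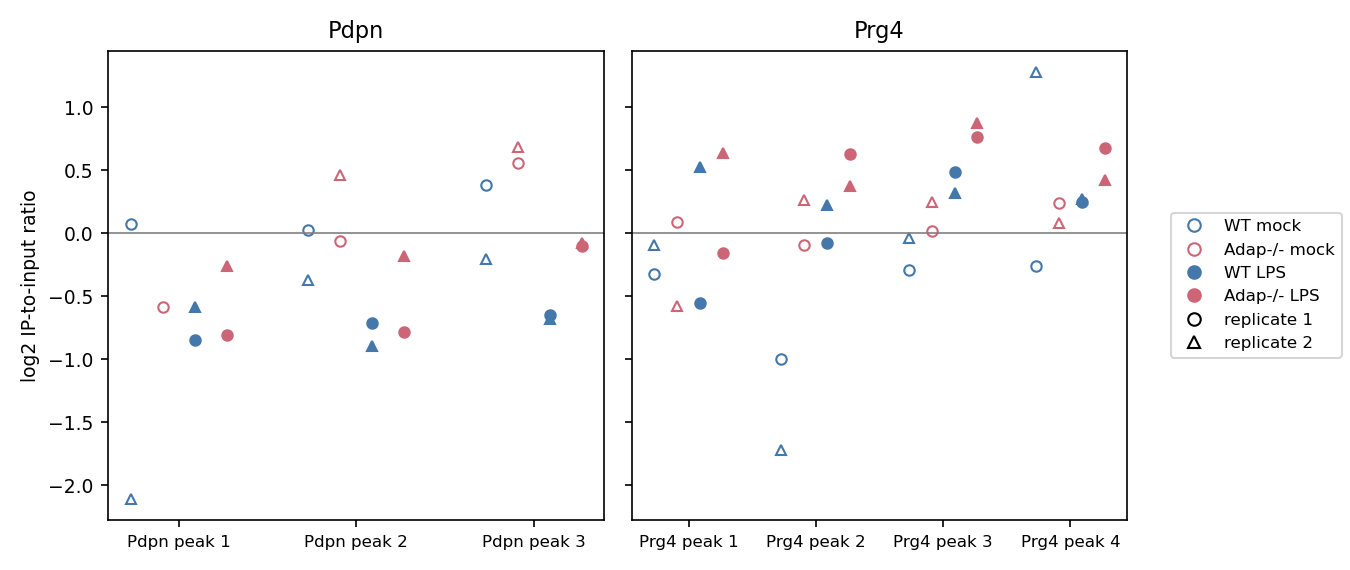
Log2 IP-to-input ratio of each peak of Pdpn and Prg4 in each replicate (circles, replicate 1, and triangles, replicate 2), WT in blue and Adap-/- in red, mock as open and LPS as filled symbols. At Pdpn peak 3 the filled symbols lie below the open ones of the same genotype, at Prg4 peak 3 above them, and Pdpn peak 1 has no point for Adap-/- mock replicate 2, which had 0 IP reads.

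Genes that bind or act with podoplanin were given by a list of 16, of which 6 had peaks and were tested. In mock-treated PMs 1 was higher and 1 lower in Adap-/- PMs, against 8.71% and 8.65% of all genes. Mmp14, a membrane metalloprotease, was higher (log2 fold change 0.62, SE 0.12, edgeR adjusted p = 0.00187), and Lgals3, the sugar-binding galectin-3, was lower (−0.71, SE 0.11, edgeR adjusted p = 0.000537). Cd44, the hyaluronan receptor that podoplanin and lubricin both bind, had 153 to 171 input CPM in all mock libraries and changed by 0.01 (SE 0.10, edgeR adjusted p = 0.949). LPS raised 3 and lowered 1 of the 6 in each genotype, where it raised 30.2% and lowered 28.9% of all genes in WT and raised 28.5% and lowered 26% in Adap-/- PMs. Among the 6 were Mmp14 (1.72 in WT, 1.22 in Adap-/- PMs) and the actin linker Msn (1.22 and 1.48) which rose. The median of the 6 between genotypes was −0.02, against 0.01 for all genes.

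Of 21 receptors, upstream regulators and proteases of lubricin, 12 were tested and 1 was called in mock-treated PMs. This was Tlr2, the receptor for bacterial lipopeptides, with a log2 fold change of 0.84 (SE 0.11, edgeR adjusted p = 0.000231). The median of the list was 0.05. LPS raised 2 and lowered 3 of the 12 in WT PMs (30.2% and 28.9% of all genes) and raised 3 and lowered 3 in Adap-/- PMs (28.5% and 26% of all genes). Tlr2 rose by 3.14 and 2.33 and the transcription factor Foxo3 fell by 2.18 and 1.62 on the log2 scale, in the order WT and Adap-/-.

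Both proteins carry O-linked sugars, and 12 of 23 enzymes of mucin-type O-glycosylation were tested. In mock-treated Adap-/- PMs the sialyltransferase St3gal1 was higher (0.67, SE 0.11, edgeR adjusted p = 0.000731). C1galt1c1, the chaperone of the enzyme that extends the core sugar, was lower (−0.44, SE 0.14, edgeR adjusted p = 0.0380), as was the sialyltransferase St6galnac4 (−0.47, SE 0.11, edgeR adjusted p = 0.00682). The median was −0.10. In mock-treated PMs 1 of the 12 was thus higher and 2 lower, against 8.71% and 8.65% of all genes. LPS lowered 7 of the 12 in each genotype, against 28.9% of all genes in WT and 26% in Adap-/- PMs, among them Gcnt1, which makes branched O-linked sugars (−3.34 in WT and −3.53 in Adap-/- PMs), and raised 3 in WT and 2 in Adap-/- PMs (30.2% and 28.5% of all genes), with St3gal1 rising by 1.97 and 1.47.

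Tested genes of 2 further lists, other mucin-like glycoproteins and proteoglycans, were either lower in mock-treated Adap-/- PMs or not called. Of 20 further mucin-like glycoproteins 5 were tested, and in mock-treated Adap-/- PMs 2 were lower, the selectin ligand Selplg (−0.34, SE 0.09, edgeR adjusted p = 0.0185) and Cd52 (−0.75, SE 0.13, edgeR adjusted p = 0.00107), with a median of −0.11, where 8.65% of all genes were lower. Of 28 proteoglycan core proteins and hyaluronan genes 9 were tested and 3 were lower, with a median of −0.53 against 0.01 for all genes. These were the heparan sulfate proteoglycans Sdc1 (−0.84, SE 0.11, edgeR adjusted p = 0.000121) and Gpc1 (−0.77, SE 0.15, edgeR adjusted p = 0.00307) and the hyaluronidase Hyal2 (−0.53, SE 0.15, edgeR adjusted p = 0.0202). Of the genes tested in both lists 0 were called higher by edgeR, where 8.71% of all genes were. LPS raised 5 and lowered 3 of the 9 proteoglycan genes in each genotype, against 30.2% and 28.9% of all genes in WT and 28.5% and 26% in Adap-/- PMs, with the largest rise in Vcan (5.27 and 4.14).

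Markers of resident peritoneal macrophages, which are known to express Prg4, were higher in sum in Adap-/- than in WT PMs without LPS. With LPS their sum, most of it F10, was lower in Adap-/- PMs, while their median log2 fold change was positive. Of 22 markers 6 passed the filter. In Adap-/- mock PMs edgeR called 3 of these higher and 0 lower, against 8.71% and 8.65% of all genes. The coagulation factor gene F10 had 727 and 743 input CPM in WT and 948 and 1034 in Adap-/- mock PMs (log2 fold change 0.43, edgeR adjusted p = 0.0159). Thbs1, which encodes thrombospondin-1, changed by 0.77 (edgeR adjusted p = 0.0102). Ltbp1, which encodes a TGF-β binding protein, had only 1.53 and 1.62 CPM in WT and 9.45 and 11.6 in Adap-/- mock PMs (log2 fold change 2.72, edgeR adjusted p = 0.000909). The summed level of the 6 was 1764 to 1813 CPM in WT and 2149 to 2266 CPM in Adap-/- mock PMs, and the median log2 fold change was 0.66. After LPS 2 of the 6 were called higher and 0 lower in Adap-/- PMs (6.03% and 9.78% of all genes). The summed level was then 6797 to 7443 CPM in WT and 6327 to 6431 CPM in Adap-/- PMs, most of it from F10. Between the LPS-treated genotypes F10 changed by −0.19 (edgeR adjusted p = 0.292). The other tested markers had positive fitted changes there, and the median log2 fold change was 0.84. The defining markers Gata6, Timd4 and Icam2 had no peak in the table used here, so their levels are unknown. Of 13 markers of recruited monocytes and macrophages 7 were tested and 0 were called in mock-treated PMs, with a summed level of 5218 to 6167 CPM in WT and 4993 to 5266 CPM in Adap-/- PMs. After LPS 1 was called higher in Adap-/- PMs, Cd14 (0.49), and 3 were lower, Fcgr1 (−1.28), Cx3cr1 (−0.41) and Mertk (−0.32), with a summed level of 6058 to 6723 CPM in WT and 6184 to 7181 CPM in Adap-/- PMs. These were named for their calls after LPS, after their values were seen. The part of a different mix of macrophages in the levels of Prg4 and Pdpn was not tested.

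Few markers of cells other than macrophages had peaks. Of 16 mesothelial markers only Lrrn4 was tested, with 6.91 and 12.7 CPM in WT and 22.0 and 11.9 CPM in Adap-/- mock PMs (edgeR adjusted p = 0.188). Its level was low and the other mesothelial markers were not tested, so no comparison with Prg4 is drawn. After LPS, Lrrn4 had 4.97 and 7.95 CPM in WT and 13.5 and 5.10 CPM in Adap-/- PMs. Of 12 fibroblast markers 3 were tested and 0 were called, with a summed level of 44.8 to 79.5 CPM in WT and 57.5 to 90.8 CPM in Adap-/- mock PMs. After LPS the sum was 74.6 to 116 CPM in WT and 135 to 159 CPM in Adap-/- PMs, and Pdgfrb was called higher in Adap-/- PMs (log2 fold change 1.46, edgeR adjusted p = 0.000369). Of 10 endothelial and lymphatic markers only Kdr was tested, at 0.269 to 2.89 CPM in mock-treated PMs, and of 12 neutrophil markers only Csf3r, at 123 to 164 CPM (edgeR adjusted p = 0.0550). None of the 8 B cell, 8 T cell and 11 eosinophil and mast cell markers was tested. A gene without an m6A peak is not in the table, so these markers set no limit on the number of such cells, and their part in the differences was not tested.

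The genes whose input levels followed those of the pair most closely were found by Pearson's correlation of log2(CPM + 1) over the 8 input libraries, as a description. The libraries fall into 4 groups, so r reflects mostly the group means. For Pdpn these were Cyren, Csnk1g3, Tmem140, Rgs1 and Fcgr4, with r of 0.986 to 0.991. Rgs1, a regulator of G protein signalling, had mean input CPM of 817 in WT mock, 354 in Adap-/- mock, 2580 in WT LPS and 1070 in Adap-/- LPS PMs, and Fcgr4, a receptor for IgG, had 114, 51.5, 261 and 125 in the same order. Both were thus lower in Adap-/- PMs and higher after LPS in the mean, by smaller factors than Pdpn.

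For Prg4 the closest genes were Kmt2d (r = 0.975), ENSMUSG00000086839, Pla2g7, ENSMUSG00000090307 and Hivep2, the others having r of 0.956 to 0.959. Pla2g7 and ENSMUSG00000090307 had identical values because they are listed for the same peaks, and cannot be told apart. Kmt2d, a histone H3 methyltransferase, had mean input CPM of 71.9 in WT mock, 127 in Adap-/- mock, 86.3 in WT LPS and 141 in Adap-/- LPS PMs. Its range over the groups was much narrower than that of Prg4.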

How the data were processed

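PMs of 4 groups were profiled by MeRIP-seq with 2 replicates per group, each giving 1 input and 1 IP library. The authors, using the Omicsmart platform, deposited raw read counts on peaks merged over all libraries, 7069 peaks in 8094 lines, because a peak is repeated for each of its genes. The submitters' processing notes name GRCm39, Bowtie2 2.2.8, MACS2 2.1.2 and DiffBind 2.8, without roles. Library molecules were not marked, so PCR duplicates cannot be told apart from separate molecules.

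Groups followed the sample titles. Gene levels were computed from the input counts summed over all peaks of a gene, and given as CPM normalized by TMM over the 8 input libraries. Levels of single peaks were normalized by TMM over all 16 libraries. All 8 input libraries were fitted together in R 4.3.3 with edgeR 4.0.16 (filterByExpr with a minimum count of 10 and minimum total of 15, glmQLFit, glmQLFTest, limma 3.58.1), 1 mean per group, with Benjamini-Hochberg adjustment over 4742 genes (201 left out) and a threshold of 0.05. The IP-to-input ratio was tested over all 16 libraries and 7058 peaks (11 left out). The main fit did not pair an input with the IP library of its replicate. Libraries are scaled on the average peak, so a shift of all peaks is not seen. Per-library ratios are IP CPM over input CPM. The steps were tested on simulated data.

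Pdpn and Prg4, the gene lists and the marker lists were chosen with earlier results of these data known. Named genes were the pair, for each the 5 genes most alike over the input libraries, list genes called in mock-treated PMs, and Fyb1. Of the 3 genes with the strongest LPS response of each list, only some are named. Others, such as Cd44, Ptgs2, Prdm2, Lyz2 and Cd68, were named outside these rules. Replicates that share a number in different groups were treated as unpaired, because the correlations of their deviations across genes were −0.09 to 0.17 in input. Within a group, the deviations of input and IP libraries correlated across peaks by only −0.11 to 0.11. Per-library ratios therefore pair input and IP by their labels alone. Alternatives were DESeq2 1.42.0, other scalings, filters, a replicate block, only the libraries compared, only peaks of 1 gene, and leaving out libraries, where a lone library of a group is assumed to vary like the other groups. Settings without the IP libraries that stood apart, and with the WT mock numbers crossed, were added after seeing the data. No sequences are shown.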

Additional observations from a re-analysis of the deposited data

How the results depend on the processing

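Over all alternatives the genotype difference in mock-treated PMs stayed between −2.00 and −1.92 on the log2 scale for Pdpn and between 1.98 and 3.10 for Prg4 (edgeR and DESeq2 adjusted p at most 0.00365), and the LPS response of Pdpn between 1.95 and 2.36. For Prg4, leaving out 1 input library moved the genotype difference after LPS to 1.79 to 2.84, the LPS response to 0.27 to 1.17 in WT and −0.12 to 1.07 in Adap-/- PMs, and the difference between the responses to −0.79 to 0.43. The response in WT PMs was 0.67 with only the libraries compared (adjusted p = 0.0161). The replicate block, with numbers that do not pair the groups, changed no call of either gene. With it, 784 rather than 823 genes were called between genotypes in mock-treated PMs.

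Some IP-to-input ratio changes reversed. Pdpn peak 1 between genotypes in mock became 1.42 and its LPS response in WT 1.28 without the IP libraries of Adap-/- mock replicate 2 and WT mock replicate 1, where Prg4 peak 3 in mock became −0.33 and the WT response of Prg4 peak 4 became 0.016. The WT response of Pdpn peak 1 was 0.26 with the replicate block, 0.27 with crossed numbers and 0.015 with a mean input of at least 10 reads, where that of Prg4 peak 4 was 0.010. Without the IP library of Adap-/- mock replicate 1, Prg4 peaks 1 and 4 in mock were 0.10 and 0.24, and the Adap-/- responses of peaks 2 and 4 were −0.21 and −0.0030. With 1 sample left out, Pdpn peak 1 spanned −7.32 to 0.69 (mock) and −0.80 to 1.41 (WT response), Pdpn peak 2 between genotypes after LPS 0.021 to 0.62, Prg4 peak 1 −0.29 to 0.36 (mock) and −0.31 to 0.77 (WT response), and Prg4 peak 4 −1.14 to 0.42 and −1.01 to 0.50. Pdpn peak 3 passed the threshold with DESeq2 in WT (−0.86) and without the IP libraries that stood apart in Adap-/- PMs (−0.68). The causes were not tested.

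Counts of genes called between genotypes in mock (823) were 534 without Adap-/- mock replicate 1, 308 without replicate 2 and 437 without WT mock replicate 2. After LPS (750) they were 354 without Adap-/- LPS replicate 2 and 385 without WT LPS replicate 1. Ratio changes called in the WT and Adap-/- LPS responses were 0 and 0, 202 and 117 by DESeq2, 7 and 6 with the replicate block, 75 and 0 without WT mock replicate 2, 1 and 65 without the IP library of Adap-/- mock replicate 1, and 160 and 269 without those that stood apart. The crossed pairing called 28 and 31. Depth limits the ratio of Pdpn peak 1, with 11 and 13 input reads in Adap-/- mock PMs.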

Other observations

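Few genes near Pdpn and Prg4 had peaks. Within 1 Mb of Pdpn, 2 genes were tested, and Prdm2, 54.7 kb away, changed by 0.39 between the genotypes in mock-treated PMs (edgeR adjusted p = 0.363). Within 1 Mb of Prg4 lies Ptgs2, which encodes the inducible cyclooxygenase, 341 kb away. LPS raised Ptgs2 by 9.05 on the log2 scale in WT and by 9.24 in Adap-/- PMs (edgeR adjusted p = 1.95e-14 and 3.62e-14), whereas the response of Prg4 was not called. Between the genotypes in mock-treated PMs, Ptgs2 changed by 0.75 (SE 0.26, edgeR adjusted p = 0.0639), and in LPS-treated PMs it was higher in Adap-/- PMs by 0.94 (SE 0.15, edgeR adjusted p = 0.000572), the direction of Prg4. A tested gene without a symbol lies nearer to Prg4, 284 kb away. Its fitted genotype difference was 0 in mock-treated PMs and 0.61 after LPS (edgeR adjusted p = 0.382), so it was not called in either.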
